A study of Equus caballus with 16 samples.

Results

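The spring anovulatory season (SAN) was set against the whole ovulatory part of the year in miRNAs of follicular fluid extracellular vesicles (FF-EVs) of mares. The comparison took the 4 SAN libraries against the mean of 3 seasons, spring ovulatory (SOV, 4 libraries), summer (SUM, 4 libraries) and fall ovulatory (FOV, 3 libraries), with the same weight for each season. It used 15 of the 16 libraries and the 282 of 686 listed miRNAs whose mean was above 10 CPM (read counts scaled by library size) in at least 1 season. One miRNA, let-7c, passed the test, and it was also the one miRNA whose 4 SAN libraries lay apart from all 11 ovulatory libraries.

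All groups were fluids of growing follicles of 30 to 35 mm from mares of a single breed, 8 to 14 years old and kept under natural light. In SAN as in the other seasons, the paper took only mares with estrus-like uterine edema and without a corpus luteum at aspiration. Follicles had been ablated under ultrasound guidance in every group to start a new wave, and the sources differ on when this was done in SAN. SAN fluids were drawn in March, when dominant follicles develop but do not ovulate. SOV fluids were drawn in April and May, SUM fluids in June and July and FOV fluids in September. Each library combined the fluids of 2 to 3 mares, and each season drew on 6 to 12 follicles. The mares were fewer than the fluids, so mares recurred between seasons, and the tests treat the libraries as independent. FOV_1, another fall library, was set aside by the study for its likeness to SAN in a principal component analysis, so the FOV group was chosen in part by its profile, and the value of FOV_1 is given for the miRNAs on which the results turn. No miRNA defines an EV, so that label could not be checked here. The paper examined the EVs by electron microscopy, marker proteins and particle tracking. In these data, fewer vesicles carrying a miRNA cannot be told apart from less of it per vesicle.

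Reads assigned to miRNAs numbered 36328 to 94216 in the SAN libraries (median 50927) and 27131 to 112146 in the ovulatory libraries (median 48306). One read was worth 12.3 to 30.3 CPM in SAN and 7.91 to 35.6 CPM in the ovulatory libraries. Of the 282 miRNAs, 103 had fewer than 10 reads in SAN and 28 had none. The standard error (SE) of the log2 fold change (FC) had a median of 0.33 for the 60 miRNAs with a mean of at least 1000 CPM and of 1.28 for the 143 below 100 CPM, so the abundant miRNAs are the better measured ones. SUM_1 and SUM_4 stood apart from the other libraries in miR-218, at 60987 and 38066 CPM against 399 to 8548 CPM in the other 13 libraries, and in miR-7, at 39848 and 25436 CPM. Without both, let-7c was still called (log2 FC 1.25, adjusted p = 0.0375, limma).

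A miRNA is a short RNA that pairs, mainly through its seed (bases 2 to 8), with messenger RNAs and lowers their output, and vesicles of follicular fluid carry such RNAs between the granulosa, theca, cumulus cells and oocyte. The let-7 family is among the most conserved of these RNAs. Its members share a seed, accumulate as cells differentiate, are held down in stem cells by LIN28 and target growth genes such as HMGA2 and RAS genes. In the mare, the follicle of the spring transition reaches the size of a preovulatory follicle with little steroid output and low luteinizing hormone, and regresses. Hormone levels of the mares sampled here are not part of these data.

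The mature sequences below are those of the study's own table of expressed miRNAs, named after miRBase 22 and written as DNA, with the seed in capitals. They are shown because the results turn on them, and because some differ from a relative by a single base. The first pair holds let-7c and its nearest relative let-7a, which differ by G19A, counted from the 5′ end of let-7c. The next 4 averaged higher in SAN than in each ovulatory season, miR-143 and miR-145 differed above all among the ovulatory seasons, and the last 5 averaged lower in SAN than the ovulatory mean, among them miR-192 and miR-215 of 1 seed, which differ by C1A and C20A counted from the 5′ end of miR-192.
let-7c: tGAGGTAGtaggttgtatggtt
let-7a: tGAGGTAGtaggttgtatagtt
miR-200b: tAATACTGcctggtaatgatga
miR-221: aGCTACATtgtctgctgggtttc
miR-214: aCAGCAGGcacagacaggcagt
miR-23a: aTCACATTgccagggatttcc
miR-143: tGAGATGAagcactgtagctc
miR-145: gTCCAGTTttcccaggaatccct
miR-192: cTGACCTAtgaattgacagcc
miR-215: aTGACCTAtgaattgacagac
miR-27a: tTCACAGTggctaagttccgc
miR-323-3p: cACATTACacggtcgacctct
miR-409-3p: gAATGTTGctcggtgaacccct

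The question was whether SAN stands apart from ovulatory follicles as a class. Each miRNA was fitted with limma on log2(CPM + 1), and a miRNA was called at a Benjamini-Hochberg adjusted p under 0.05 over the 282 miRNAs with an FC of at least 2. By this rule 1 of 282 miRNAs was called (0.355%), and it was higher in SAN. At an unadjusted p under 0.05, 23 miRNAs were higher in SAN (8.16%) and 15 lower (5.32%), and after let-7c the smallest adjusted p was 0.181. Over all 282 miRNAs the median log2 FC was -0.07, with 132 values above 0 and 150 below. The 4 SAN libraries did not overlap with the 11 ovulatory libraries in 1 of 282 miRNAs (0.355%), which was let-7c again.

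Let-7c was higher in SAN than in the ovulatory seasons. It was measured at 21981, 39117, 50744 and 23282 CPM in SAN_1 to SAN_4, against 8415 to 17281 CPM (median 13633) in the 11 ovulatory libraries, and at 14269 CPM in FOV_1. Every SAN library lay above every ovulatory library, with SAN_2 and SAN_3 well above the other 2. It averaged 33781 ± 13732 CPM in SAN (SD, n = 4) and 13020 CPM over the ovulatory seasons, from 15818 ± 1066 in SOV (n = 4), 12709 ± 3232 in SUM (n = 4) and 10533 ± 1416 in FOV (n = 3). The log2 FC was 1.32 (SE 0.26, adjusted p = 0.0191, limma with Benjamini-Hochberg adjustment), an FC of 2.50. These values rest on 7475 reads in SAN and 8929 in the ovulatory libraries.

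The difference did not come from 1 ovulatory season. The log2 FC of let-7c was 1.01 (SE 0.31) against SOV, 1.36 (SE 0.31) against SUM and 1.60 (SE 0.33) against FOV, values that share the SAN libraries and are given side by side. Among the 3 ovulatory seasons let-7c was not called to differ (adjusted p = 0.365, limma F-test), with 0.59 on the log2 scale between the highest and the lowest season mean. The call rested on the SAN libraries with the highest values: without SAN_2 the log2 FC was 1.22 with an adjusted p of 0.181 and without SAN_3 1.10 with 0.139, and without FOV_2 it was 1.29 with 0.0530 (limma). Scaling the reads to equal totals gave 1.24 with an adjusted p of 0.0753. The paper had already reported let-7c as higher in SAN than in SUM and FOV on these same libraries, so its direction is no independent evidence. It was not among the miRNAs that the paper lists as different between SAN and SOV.

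**Figure D1:**
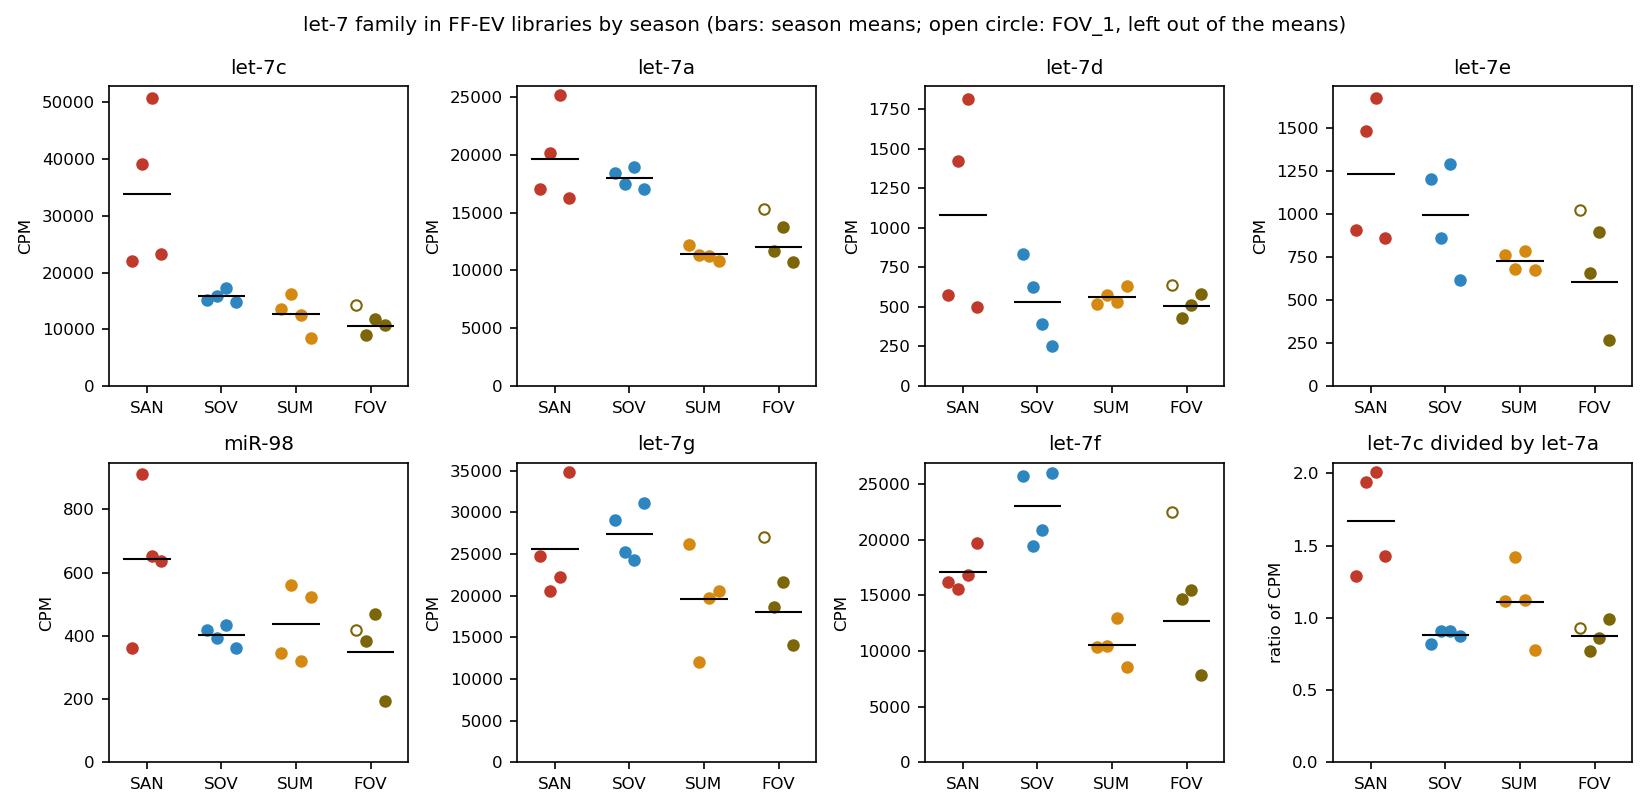
Each panel plots 1 member of the let-7 family in CPM on the vertical axis by season (SAN, SOV, SUM, FOV), with a point per library, a bar at the season mean and an open circle for FOV_1, which is left out of the mean, and the last panel plots the ratio of let-7c to let-7a. For let-7c the 4 SAN points, 21981 to 50744 CPM, lie above all ovulatory points, the highest of which is 17281, while the points of the other members overlap.

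The rest of the let-7 family leaned the same way with smaller values. Apart from let-7c, the log2 FC ran from 0.25 for let-7f to 0.85 for let-7d. With let-7c counted in, all 7 measured members of 9 listed had a log2 FC above 0. Their median was 0.67 beside -0.07 over all miRNAs, and 1 of the 7, let-7c, was called. Let-7a was measured at 17015, 20148, 25208 and 16294 CPM in SAN and at 10760 to 18963 CPM (median 12176) in the ovulatory libraries, with FOV_1 at 15292 CPM. SAN_2 and SAN_3 were above all ovulatory libraries, and SAN_1 and SAN_4 lay just below the 4 SOV libraries and above all SUM and FOV libraries. Its log2 FC was 0.52 (SE 0.20, adjusted p = 0.267, limma), with 0.11 against SOV.

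Let-7d and let-7e showed the same split within SAN. Let-7d was at 575, 1426, 1817 and 503 CPM in SAN and at 255 to 838 CPM (median 534) in the ovulatory libraries, with a log2 FC of 0.85 (SE 0.39, adjusted p = 0.344). Let-7e was at 908, 1483, 1672 and 858 CPM in SAN and at 270 to 1288 CPM (median 763) in the ovulatory libraries (log2 FC 0.71, SE 0.34, adjusted p = 0.360). In both, SAN_2 and SAN_3 exceeded all ovulatory libraries and SAN_1 and SAN_4 did not. MiR-98, which shares the seed, was at 363, 912, 654 and 638 CPM in SAN and at 193 to 562 CPM (median 394) in the ovulatory libraries (log2 FC 0.67, SE 0.36, adjusted p = 0.427), with SAN_1 below the ovulatory median. The more abundant let-7g and let-7f overlapped between the groups, with log2 FC of 0.26 (SE 0.24) and 0.25 (SE 0.23), and let-7f was called among the ovulatory seasons, being highest in SOV. All 7 members, let-7c included, kept a positive log2 FC when any 1 library was left out, under the other scalings and with FOV_1 kept. The median of the 7 then ranged over 0.50 to 0.84.

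Let-7c and let-7a differ in 1 base, so reads with an error there could be assigned to either, and their ratio was therefore followed. The ratio of let-7c to let-7a was 1.29 to 2.01 in SAN (median 1.69), 0.773 to 1.42 in the ovulatory libraries (median 0.911) and 0.933 in FOV_1. One ovulatory library, SUM_2, lay above the lowest SAN library. Let-7c made up 24.4% to 42.8% of the summed let-7 level without miR-98 in SAN and 16.4% to 31.6% in the ovulatory libraries. Of all miRNA reads it was 2.00% to 4.996% in SAN and 0.967% to 1.82% in the ovulatory libraries, again without overlap. The sum of the other let-7 members, 59189 to 72164 CPM in SAN, overlapped with 33524 to 75237 CPM in the ovulatory libraries.

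In human, let-7c lies in 1 transcript with miR-99a and miR-125b, a grouping made here after the values were seen. The 3 members had log2 FC of 1.32, 0.76 and 0.67. MiR-99a, which targets the growth kinase MTOR and was among the most abundant miRNAs, was at 168367, 131703, 156884 and 193223 CPM in SAN and at 43703 to 151827 CPM (median 93036) in the ovulatory libraries. SAN_1, SAN_3 and SAN_4 exceeded all ovulatory libraries and SAN_2 did not, and FOV_1 was at 139400 CPM. The log2 FC was 0.76 (SE 0.28, adjusted p = 0.264), with 0.24 against SOV, 1.18 against SUM and 0.85 against FOV.

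MiR-125b-5p was at 4481, 7204, 6852 and 4720 CPM in SAN and at 1852 to 5446 CPM (median 4032) in the ovulatory libraries, with a log2 FC of 0.67 (SE 0.28, adjusted p = 0.316). SAN_2 and SAN_3 exceeded all ovulatory libraries, as they did for let-7a. The related cluster of miR-99b, let-7e and miR-125a had 3 of its 4 measured RNAs above 0 and a median of 0.67. Within the seed family of miR-99a, miR-99b had a log2 FC of 0.63 (SE 0.27) and miR-100 of 0.33 (SE 0.28). MiR-100 differs from miR-99a by T16A (counted from the 5′ end of miR-99a). It averaged 19101 CPM in SAN, against 14581 CPM in SOV, 7403 CPM in SUM and 35232 CPM in FOV, and its log2 FC was -0.18 when SUM was left out of the mean.

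A group of 4 miRNAs had log2 FC of 0.94 to 1.60 and did not pass the adjusted test. They were miR-200b, miR-221, miR-214 and miR-23a. MiR-200b keeps cells epithelial by targeting ZEB1 and ZEB2. MiR-221 targets the cell cycle inhibitor CDKN1B and the receptor KIT, and miR-214 is made from 1 transcript with miR-199a. In all 4 the SAN mean was the highest of the 4 season means and no difference among the ovulatory seasons was called (adjusted p of 0.290 to 0.869, limma F-test).

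MiR-200b was at 757, 3611, 5761 and 3764 CPM in SAN_1 to SAN_4 and at 404 to 2529 CPM (median 1056) in the ovulatory libraries. SAN_2 to SAN_4 exceeded all ovulatory libraries and SAN_1 lay below the ovulatory median. Its log2 FC came to 1.60 (SE 0.51, adjusted p = 0.181), with 1.93 against SOV, 1.60 against SUM and 1.27 against FOV, and FOV_1 was at 1169 CPM.

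MiR-221 was at 999, 4961, 4889 and 1520 CPM in SAN and at 448 to 1699 CPM (median 1100) in the ovulatory libraries, with FOV_1 at 932 CPM. SAN_2 and SAN_3 exceeded all ovulatory libraries, and SAN_1 was again below their median. Its log2 FC was 1.36 (SE 0.43, adjusted p = 0.181), and that of miR-222, which shares its seed, was 0.34 (SE 0.42).

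MiR-214 was at 333, 1254, 1690 and 503 CPM in SAN and at 179 to 419 CPM (median 308) in the ovulatory libraries, with FOV_1 at 238 CPM. All SAN libraries were above the ovulatory median and 3 exceeded every ovulatory library. This gave a log2 FC of 1.36 (SE 0.43, adjusted p = 0.181), with 1.28 against SOV, 1.23 against SUM and 1.57 against FOV.

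MiR-23a was at 878, 2433, 3490 and 2660 CPM in SAN and at 725 to 1362 CPM (median 1099) in the ovulatory libraries, with FOV_1 at 1571 CPM. SAN_1 was below the ovulatory median and the other 3 SAN libraries were above all ovulatory libraries. This gave a log2 FC of 0.94 (SE 0.32, adjusted p = 0.200).

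SAN_1 was the lowest SAN library in all 4 miRNAs. It stood apart from the other 3 in miR-200b and miR-23a, while in miR-221 and miR-214 SAN_4 lay nearer to SAN_1 than to SAN_2 and SAN_3. Without SAN_1 the fit called 5 miRNAs, let-7c and these 4. The log2 FC of the 4 were then 2.22 for miR-200b, 1.79 for miR-221, 1.76 for miR-214 and 1.36 for miR-23a. Leaving out the lowest SAN library raises the SAN mean, so these calls are no independent evidence. Under the 34 alternative settings described at the end, the log2 FC went down to 1.25 for miR-200b, 1.02 for miR-221, 0.98 for miR-214 and 0.70 for miR-23a. Each of the 4 was called in 2 of the 34. SAN_1 was also the SAN library with the fewest reads, 36328. It held the most miR-1 and miR-206, which are 2 of the 5 muscle markers. MiR-1 was at 48382 CPM in SAN_1, against 3364 to 6130 CPM in SAN_2 to SAN_4 and 593 to 14461 CPM in the ovulatory libraries, and miR-206 was at 6812 CPM. The other markers did not show this excess. MiR-133a had 10, 14, 13 and 6 reads in SAN_1 to SAN_4, miR-499-5p had 2, 3, 5 and 2, and miR-133b had 1, 0, 0 and 0. The 5 skeletal and heart muscle markers, all measured, summed to 4201 to 55587 CPM in SAN (median 5956) and 1764 to 16420 CPM in the ovulatory libraries (median 7946). The part of muscle RNA or depth in the values of SAN_1 was not tested.

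**Figure D2:**
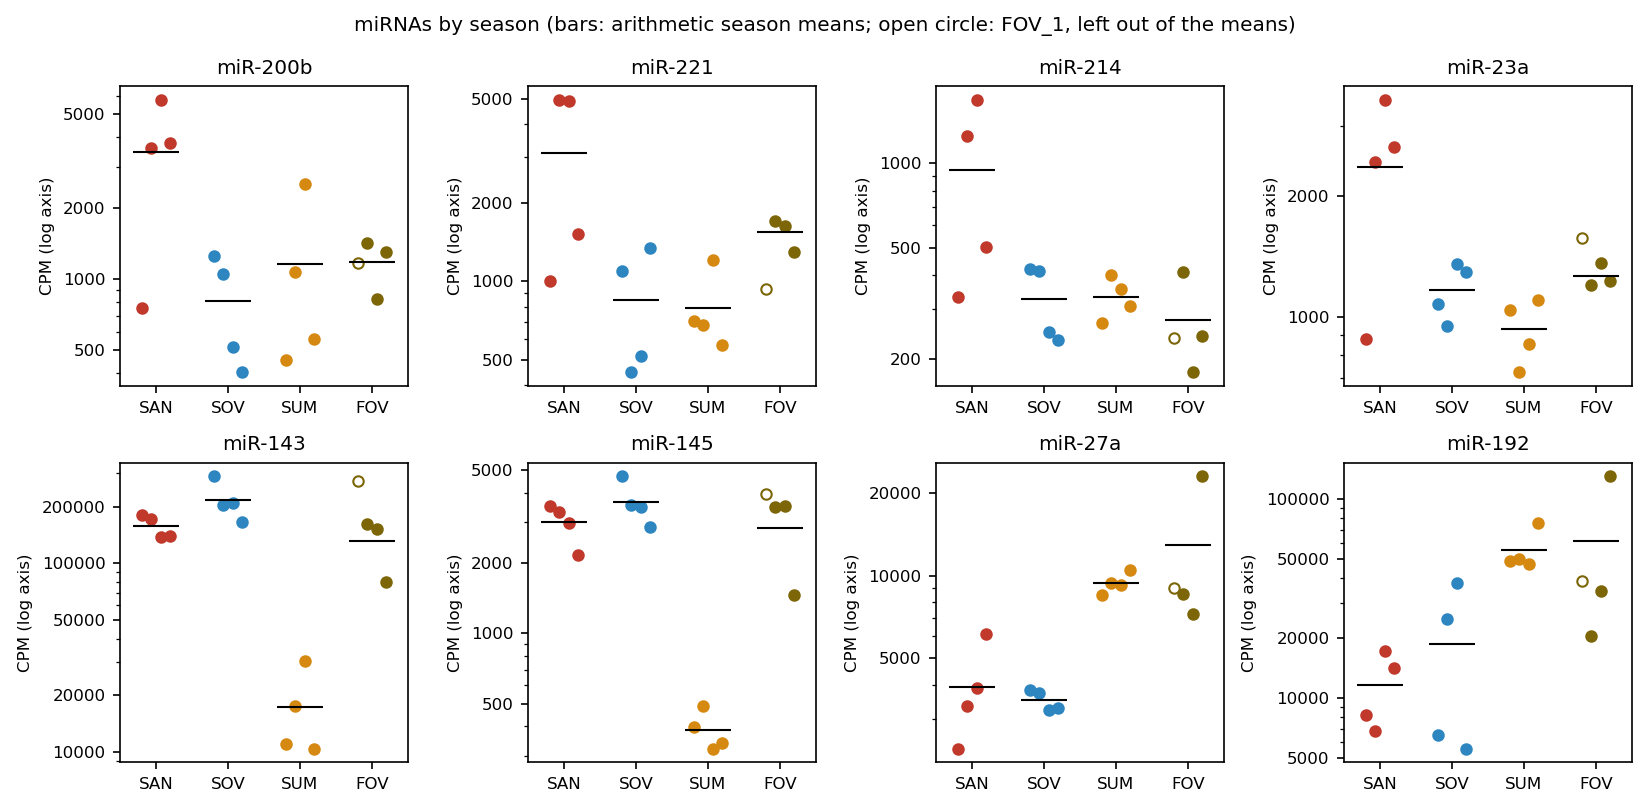
Each panel plots 1 miRNA in CPM on a logarithmic vertical axis by season, with a point per library, a bar at the arithmetic season mean and an open circle for FOV_1, left out of the mean. In the top row (miR-200b, miR-221, miR-214, miR-23a) 2 or 3 SAN points lie above all ovulatory points and SAN_1 lies among them, and in the bottom row (miR-143, miR-145, miR-27a, miR-192) the ovulatory seasons themselves lie far apart.

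The mean over the ovulatory seasons hid large differences between them. The F-test among SOV, SUM and FOV called 52 of 282 miRNAs (18.4%), and 87 had an unadjusted p under 0.05. Of the 52, SOV stood apart from the other 2 seasons in 27 (24 of them lower in SOV), SUM in 21 (8 higher and 13 lower) and FOV in 4, all higher. Of the 38 miRNAs with an unadjusted p under 0.05 in the contrast of SAN, 10 were among the 52. Counted over the 12 lowest p in each direction, 2 of the 12 that were higher in SAN and 6 of the 12 that were lower were called among the ovulatory seasons. The SAN mean was the highest of the 4 season means in 50 of 282 miRNAs, the lowest in 49, tied for the lowest in 20, where SAN and at least 1 other season had no read, and between them in 163. Leaving out single libraries moved the 52 calls to between 31 (without SOV_1) and 52, with 33 without SOV_4 and 33 without SUM_4.

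**Figure D3:**
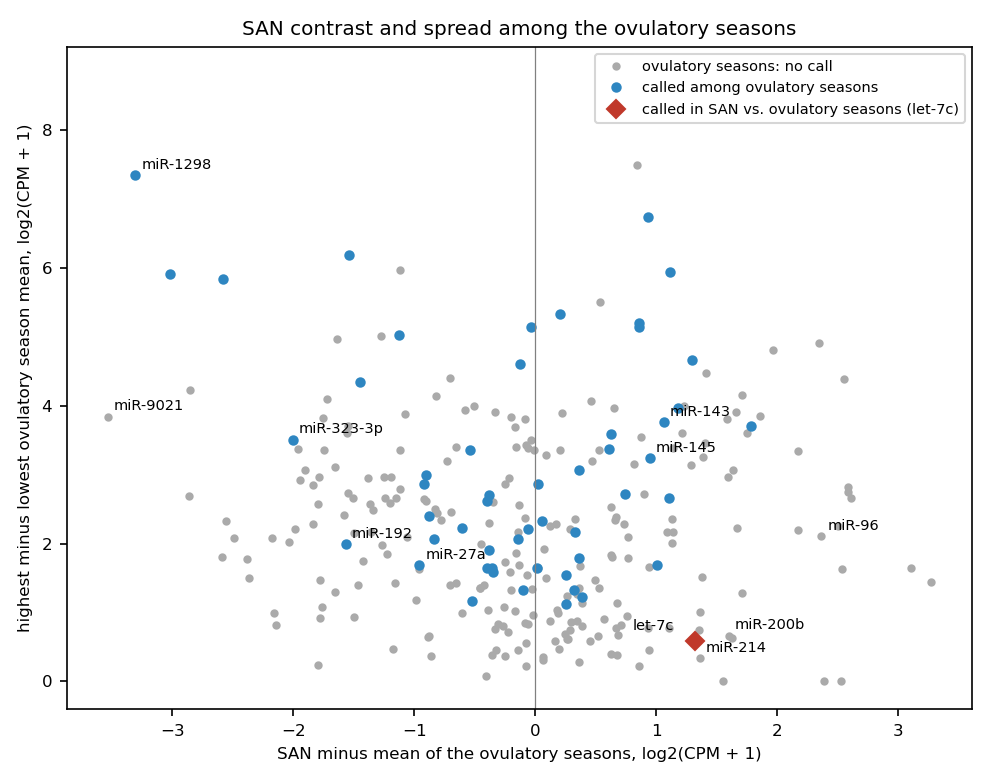
Each of the 282 miRNAs is a point, with the log2 FC of SAN against the ovulatory mean on the horizontal axis and the gap between the highest and lowest ovulatory season mean on the vertical axis, both in log2(CPM + 1). Let-7c (diamond) sits at 1.32 with a gap of 0.59, while miR-143 sits at 1.06 with a gap of 3.76 and the 52 miRNAs called among the ovulatory seasons are in blue.

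MiR-143 and miR-145, which are made from 1 transcript and mark smooth muscle and mesenchymal cells, were among the 4 miRNAs of smallest p and differed above all among the ovulatory seasons. MiR-143 was at 180174, 171124, 138473 and 139608 CPM in SAN and at 10416 to 289954 CPM (median 152331) in the ovulatory libraries, with FOV_1 at 272479 CPM. The SAN libraries lay in the middle of the ovulatory range. SUM averaged 17314 CPM, SOV 217751 CPM and FOV 131147 CPM, so the log2 FC of 1.06 (SE 0.30, adjusted p = 0.181) combined -0.45 against SOV, 3.31 against SUM and 0.32 against FOV.

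MiR-145 was at 3512, 3326, 2981 and 2170 CPM in SAN and at 321 to 4712 CPM (median 2868) in the ovulatory libraries, with FOV_1 at 3946 CPM. Its log2 FC of 0.94 (SE 0.28, adjusted p = 0.181) combined -0.29, 2.95 and 0.17 against SOV, SUM and FOV in that order. Both miRNAs were called to differ among the ovulatory seasons (adjusted p of 3.83e-06 and 6.21e-06, limma F-test), and without SUM in the mean the log2 FC came to -0.065 for miR-143 and -0.057 for miR-145. The other smooth muscle and mesenchyme markers had log2 FC of 0.36 for miR-199a-3p, 0.19 for miR-199a-5p and 1.36 for miR-214, and the 5 markers summed to 150522 to 190559 CPM in SAN and 15644 to 308331 CPM in the ovulatory libraries, lowest in SUM_4.

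**Figure D4:**
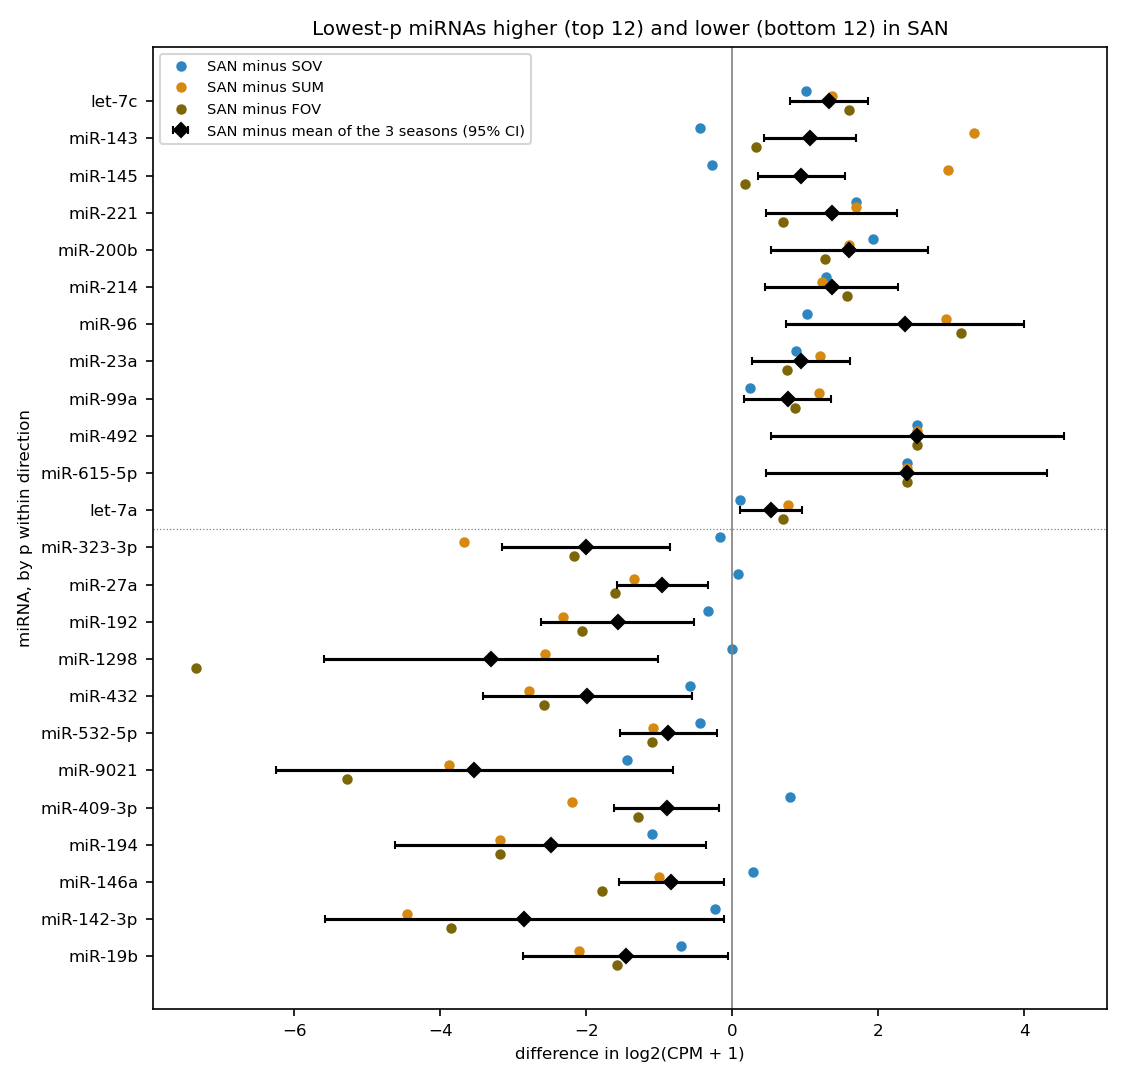
Each row is 1 of the 24 miRNAs of lowest p, 12 higher and 12 lower in SAN, with the difference in log2(CPM + 1) on the horizontal axis. Black diamonds with bars give SAN minus the mean of the 3 ovulatory seasons with its 95% confidence interval, and circles give SAN minus each season; for let-7c the circles run from 1.01 to 1.60, and for miR-143 from -0.45 to 3.31.

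MiR-96 and miR-182, which come from 1 cluster with miR-183 and target FOXO1, had log2 FC of 2.36 (SE 0.77, adjusted p = 0.181) and 1.01 (SE 0.40, adjusted p = 0.274). MiR-96 was at 303, 456, 200 and 135 CPM in SAN and at 9.65 to 314 CPM (median 44.6) in the ovulatory libraries, on 56 reads in SAN and 46 in the ovulatory libraries. All SAN libraries were above the ovulatory median, and SOV_1 and SOV_4 lay among them. MiR-183 had a log2 FC of 0.02 (SE 0.35).

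The 12 miRNAs of lowest p among those that averaged lower in SAN were each nearer to SOV than to SUM or FOV. Their log2 FC against SOV ran from -1.44 for miR-9021 to 0.79 for miR-409-3p, and the SAN mean was the lowest of the 4 season means in 8, tied with SOV at 0 for miR-1298 and between the others for miR-27a, miR-409-3p and miR-146a. With SOV left out of the mean, so that SAN was set against SUM and FOV, 11 miRNAs were called, 4 higher and 7 lower in SAN, while with FOV left out 3 were called, let-7c, miR-143 and miR-145.

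With all 15 libraries the list with the lowest median was that of miR-192, miR-215 and miR-194, and without SAN_2 or FOV_4 it was the leukocyte list. The 3 miRNAs are induced by p53 and abundant in gut, liver and kidney epithelium. They had log2 FC of -1.57, -1.16 and -2.49, with a median of -1.57 beside -0.07 over all miRNAs, and none was called. MiR-192 was at 8235, 6843, 17284 and 14234 CPM in SAN and at 5566 to 130169 CPM (median 38009) in the ovulatory libraries, with FOV_1 at 38787 CPM. All SAN libraries were below the ovulatory median, and SOV_1 and SOV_4 were lower than any of them. The log2 FC of -1.57 (SE 0.50, adjusted p = 0.181) combined -0.33 against SOV, -2.32 against SUM and -2.05 against FOV.

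MiR-215, which shares the seed of miR-192, was at 4996, 3592, 9742 and 8116 CPM in SAN and at 2146 to 49842 CPM (median 15775) in the ovulatory libraries, with FOV_1 at 15146 CPM. SAN_3 and SAN_4 were higher than SAN_1 and SAN_2 in both miRNAs. The log2 FC of miR-215 was -1.16 (SE 0.54, adjusted p = 0.349). MiR-194 was at 0, 114, 109 and 37 CPM in SAN and at 26.2 to 743 CPM (median 136) in the ovulatory libraries, on 15 reads in SAN. The 3 together summed to 10549 to 27135 CPM in SAN and 7775 to 180755 CPM in the ovulatory libraries, and the median stayed between -1.79 and -1.06 with any 1 library left out.

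MiR-27a, which lies with miR-23a and miR-24 in 1 cluster in human, had a log2 FC of the opposite sign to that of miR-23a. It was at 2331, 3345, 3889 and 6130 CPM in SAN and at 3219 to 23122 CPM (median 8537) in the ovulatory libraries, with FOV_1 at 9007 CPM. SAN and SOV overlapped, and all SUM and FOV libraries were above both. This gave a log2 FC of -0.96 (SE 0.30, adjusted p = 0.181), with 0.07 against SOV, -1.35 against SUM and -1.61 against FOV. Of the 5 RNAs of this cluster and its paralog, all measured, miR-23a and miR-23b (0.74, SE 0.37) were above 0 and miR-27a, miR-24 (-0.40, SE 0.35) and miR-27b (-0.25, SE 0.23) below. MiR-27b differs from miR-27a by C19T and miR-23b from miR-23a by T19A, each counted from the 5′ end of the first-named a form.

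Of the imprinted DLK1-DIO3 cluster, a large group of miRNAs that are expressed from the maternal chromosome, 36 of 55 listed were measured. None was called, 13 had a log2 FC above 0 and 23 below, and the median was -0.49. Among the 13 was miR-655, which passed the filter through SAN alone. Without SAN_3 the median was -0.16 and 15 of the 36 were above 0, and without SAN_2 it was -0.29. MiR-323-3p was at 121, 38.0, 218 and 110 CPM in SAN and at 63.7 to 3224 CPM (median 491) in the ovulatory libraries, with FOV_1 at 548 CPM. The SAN libraries overlapped with SOV and lay below all SUM libraries. Its log2 FC of -2.01 (SE 0.55, adjusted p = 0.181) combined -0.17 against SOV, -3.67 against SUM and -2.18 against FOV, on 27 reads in SAN.

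MiR-409-3p was at 1484, 1159, 1908 and 1398 CPM in SAN, at 471 to 1246 CPM in SOV and at up to 8309 CPM in the ovulatory libraries (median 2567), with FOV_1 at 3636 CPM. SAN lay above the SOV mean and below every SUM and FOV library, with a log2 FC of -0.90 (SE 0.34, adjusted p = 0.264) that combined 0.79, -2.20 and -1.30 against SOV, SUM and FOV in that order. MiR-432 was at 90.8, 247, 90.9 and 12.3 CPM in SAN and at 63.7 to 813 CPM (median 374) in the ovulatory libraries (log2 FC -1.99, SE 0.68, adjusted p = 0.200).

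A pair of immune cell miRNAs were among the 12. MiR-146a, which is induced by NF-kB and targets IRAK1 and TRAF6, was at 1453, 2300, 1927 and 1287 CPM in SAN and at 810 to 6273 CPM (median 3844) in the ovulatory libraries, with FOV_1 at 2795 CPM. The SAN mean of 1742 CPM was close to the SOV mean of 1700 CPM, and SAN lay below all FOV libraries, with a log2 FC of -0.84 (SE 0.34, adjusted p = 0.288). MiR-142-3p, the most specific blood cell marker of the list, had 2 reads in SAN and 48 in the ovulatory libraries (log2 FC -2.85, SE 1.30, adjusted p = 0.344). Of the 6 leukocyte markers, all measured, 5 had a log2 FC below 0 and none was called, and their median was -1.32 (-0.61 without SAN_1). They summed to 1704 to 2718 CPM in SAN (median 2193) and 1218 to 6817 CPM in the ovulatory libraries (median 4567), and the part of such cells in the result was not tested.

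MiR-532-5p was at 606, 855, 1036 and 1508 CPM in SAN and at 998 to 3549 CPM (median 1676) in the ovulatory libraries, with FOV_1 at 2138 CPM. SAN_1 and SAN_2 were below all ovulatory libraries and all SAN libraries were below the ovulatory median. Its log2 FC was -0.88 (SE 0.32, adjusted p = 0.251), with -0.44 against SOV, -1.09 against SUM and -1.10 against FOV. MiR-19b, of the miR-17 to miR-92a cluster, had 9 reads in SAN and 100 in the ovulatory libraries (log2 FC -1.46, SE 0.67, adjusted p = 0.344). That cluster family had 4 of 12 measured members above 0 and a median of -0.41.

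Of the 24 miRNAs of lowest p, 4 had no read at all in SAN or in the ovulatory libraries. MiR-1298 had no read in SAN or SOV and 37 reads in 5 SUM and FOV libraries, and it passed the filter on low values through its means in SUM (18.3 CPM) and FOV (179 CPM). MiR-9021 had no read in SAN and 30 reads in 7 ovulatory libraries, and passed through its ovulatory means. No read in SAN allows up to 3 reads, or 13.5 CPM, over the 4 libraries, which covers counting error only, since reads were not tied to single molecules. MiR-492 had 4 reads and miR-615-5p 3 reads in SAN, all in SAN_2 and SAN_3, neither had any in the 11 ovulatory libraries, and both passed the filter through SAN alone. None of these 4 was called (adjusted p of 0.181 to 0.267).

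The miRNAs that the study names for the spring transition were chosen there on these same libraries, so their direction is no independent evidence. All 6 (miR-200b and miR-221, already described, with miR-615-3p, miR-328, miR-206 and miR-149) had a log2 FC above 0, from 0.77 to 1.79, with a median of 1.48, and none was called. The median was 0.96 without SAN_3 and 1.001 without SAN_2, and DESeq2 on the recovered reads called miR-200b, miR-221 and miR-615-3p. MiR-615-3p, which lies in the HOXC cluster, was at 151, 3744, 4489 and 331 CPM in SAN and at 52.4 to 1852 CPM (median 268) in the ovulatory libraries. MiR-328 was at 242, 1026, 1436 and 257 CPM in SAN and at 127 to 476 CPM (median 249) in the ovulatory libraries. In both, SAN_2 and SAN_3 exceeded all ovulatory libraries and SAN_1 and SAN_4 did not. Their log2 FC were 1.64 (SE 0.82, adjusted p = 0.372) and 1.11 (SE 0.50, adjusted p = 0.344).

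MiR-206, a skeletal muscle miRNA, was at 6812, 513, 1490 and 159 CPM in SAN and at 21.2 to 1816 CPM (median 444) in the ovulatory libraries, so that SAN_1 alone was above all of them. MiR-149 was at 90.8, 798, 636 and 221 CPM in SAN and at 42.5 to 530 CPM (median 249) in the ovulatory libraries, with SAN_2 and SAN_3 again above all of them. For miR-149, miR-206 and miR-615-3p the log2 FC against SUM was 0.03, -0.16 and 0.04, beside 2.13, 3.55 and 3.11 against SOV.

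**Figure D5:**
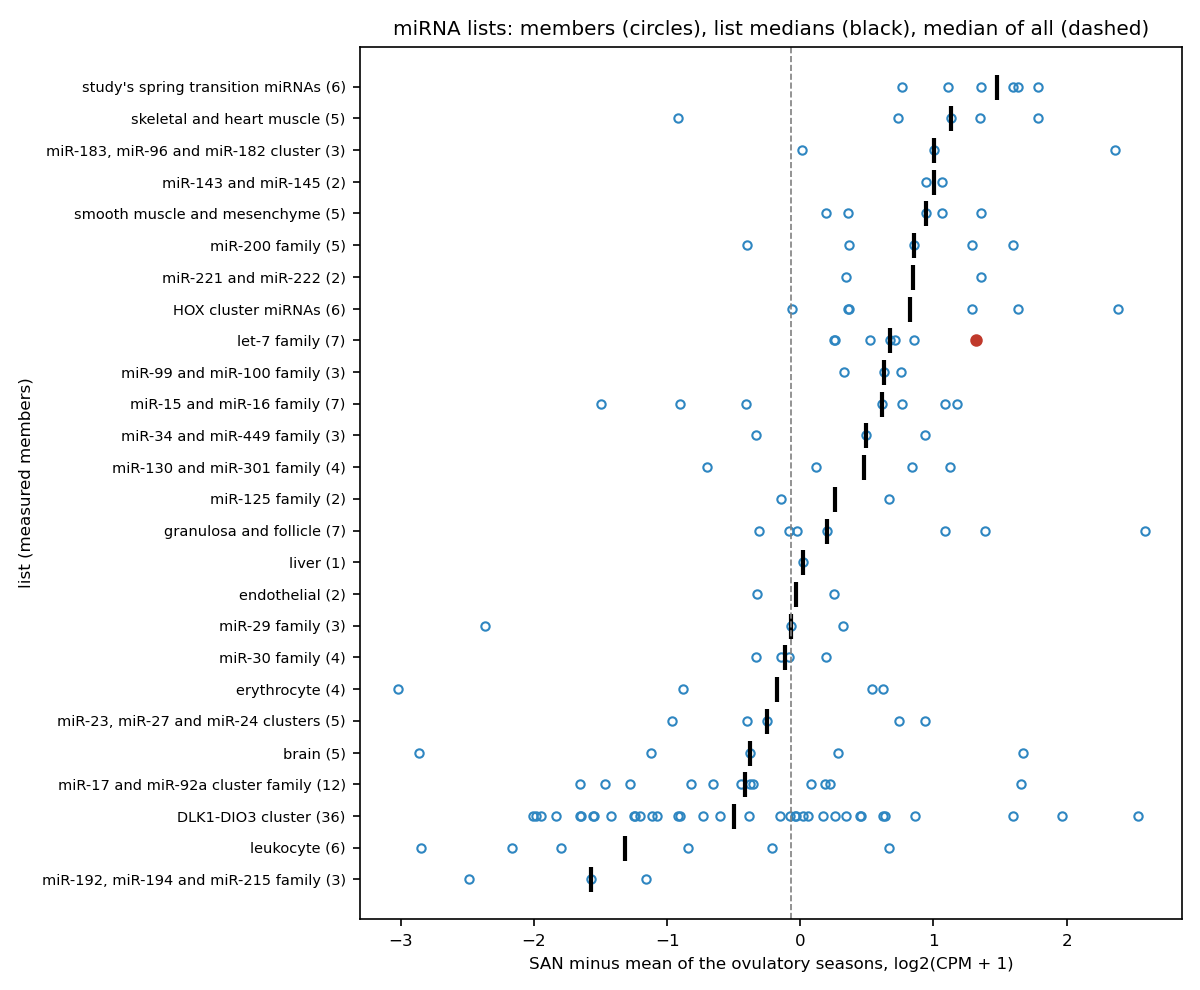
Each row is 1 list of related miRNAs with its number of measured members, circles are the members' log2 FC of SAN against the ovulatory mean in log2(CPM + 1), black ticks are list medians and the dashed line is the median of all 282 miRNAs (-0.07). Let-7c (filled) is the one called member of any list, the let-7 family has a median of 0.67, and the list of miR-192, miR-215 and miR-194 is lowest at -1.57.

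Other families and markers gave no call. The miR-200 family had 4 of 5 members above 0 (median 0.86), with miR-200a at -0.40 (SE 0.64), the miR-30 family 1 of 4 (median -0.11, and -0.24 with TMM over the 15 libraries), the miR-29 family 1 of 3 (median -0.07, from -0.39 without SAN_1 to 0.09 without SAN_3) and the miR-15 and miR-16 family 4 of 7 (median 0.61, and -0.10 without SAN_1). Of the HOX cluster miRNAs 5 of 6 were above 0 (median 0.82, and 1.30 without SAN_1). Among the 5 was miR-615-5p, which passed the filter through SAN alone. Without SAN_3 it was no longer measured, and 4 of 5 were above 0 (median 0.48). Granulosa and follicle markers, 7 of 8 measured with miR-503 again among them, had a median of 0.20. Without SAN_1, where miR-503 was no longer measured, it was 0.25 over 6 markers. The median ranged over 0.10 without FOV_4 to 0.64 without SAN_3. MiR-21, the most abundant of these markers, was at 88255, 54171, 49181 and 93044 CPM in SAN and at 31320 to 210821 CPM (median 55420) in the ovulatory libraries (log2 FC -0.02, SE 0.46). The endothelial markers, 2 of 2 measured, summed to 5652 to 9083 CPM in SAN and 2222 to 11806 CPM in the ovulatory libraries. The erythrocyte markers, 4 of 4 measured, summed to 8031 to 14558 CPM in SAN and 6979 to 73542 CPM in the ovulatory libraries, with a median log2 FC of -0.17 (-0.51 without SAN_1 and -0.52 without SAN_4). The brain markers, 5 of 5 measured with miR-137 at 0 in SAN, summed to 7062 to 31518 CPM in SAN and 4398 to 38916 CPM in the ovulatory libraries, and the liver marker miR-122 had a log2 FC of 0.02 (SE 0.56).

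The 24 miRNAs of lowest p shared no plain sequence feature apart from their families. The 12 higher in SAN had a median GC share of 47.7% and the 12 lower of 49.9%, beside 47.6% over the 282, all with a median length of 22 bases. The first base was T in 5 and 7 of the 12, and in 155 of 282 miRNAs (55.0%). The 4-base motifs GGAG and CCCT, searched on the mature strand, were each in 1 of 12 in both directions, and in 23 (8.16%) and 32 (11.3%) of the 282, a description that says nothing of a sorting factor.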

How the data were processed

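The data are 16 small RNA libraries of FF-EVs, each from the combined fluid of 2 to 3 mares. The authors deposited 1 value per miRNA and library, a signal in CPM for which the read count had been divided by a library size scaled by TMM. Per the paper, reads were trimmed (Q-score above 30, at most 2 ambiguous nucleotides, at least 15 nucleotides), mapped to EquCab3.0 and annotated with miRBase 22 in CLC Genomics Workbench 21; the submitters' processing notes name bcl2fastq, Bowtie2 2.2.2 and DESeq2, and which applies was not settled. A read assigned to the wrong member of a family of near-identical sequences would move both.

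All values (100%) were whole multiples of 1 read within 1e-06 reads, so the reads were recovered. No pair of libraries (120 pairs) was a copy (lowest chi-square per degree of freedom 8.62). In R 4.3.3, limma 3.58.1 with an intensity trend was fitted to log2(CPM + 1) in 4 season means of 15 libraries, and FC are on that scale. For low miRNAs with no read in some libraries, such FC can differ from the ratio of mean CPM, also in direction. MiR-19a had a log2 FC of 1.66 with means of 46.3 CPM in SAN and 61.1 CPM over the ovulatory seasons. P values were two-sided and Benjamini-Hochberg adjusted over 282 miRNAs. The spread between libraries may be in part technical, since libraries are pools of mares. The F-test among ovulatory seasons used the same fit, with an FC of at least 2 between the highest and lowest season. Figures were drawn with matplotlib 3.10.9.

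The named miRNAs were the called ones, the 12 of lowest p in each direction, those without overlap, the called or else the 2 most abundant members of 26 lists, and 10 that the paper's conclusions name for SAN (miR-302b, named there for FOV, was not among them). Members and lists were chosen with earlier results of these data known. Alternatives were FOV_1 kept, each season left out of the mean, a 2-group model, pseudocounts of 0.25, 5 and 20 CPM, no filter and a filter of 100 CPM, other scalings, a replicate block, robust moderation, no FC threshold, edgeR 4.0.16 and DESeq2 1.42.0 on the recovered reads, and each library left out; TMM over the 15 libraries and SUM_1 with SUM_4 left out were chosen after seeing the data. EV size, EV concentration and target prediction were not analysed here.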

Additional observations from a re-analysis of the deposited data

Results flagged for a closer look

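In the 29 named miRNAs with a test, 80 groups of 4 libraries were examined for a library whose gap to its nearest neighbour took up nearly the whole range of its season, and 7 were found. Chance gives about 1 in 20 groups for normally distributed values, which CPM near 0 are not. In SAN it was miR-100 in SAN_1, at 25826 CPM against 16502 to 17392 CPM in SAN_2 to SAN_4. In SOV, miR-432 was at 374 CPM in SOV_3 against 63.7 to 78.5 CPM in the other libraries, and miR-9021 at 53.7 CPM in SOV_2 against 0 in the others. The value of miR-9021 rests on 3 reads, and with 0 in the others any value would be flagged. In SUM, miR-323-3p was at 3224 CPM in SUM_2 (others 892 to 1036 CPM), miR-192 at 75872 CPM in SUM_4 (others 46944 to 49792 CPM), miR-615-3p at 1852 CPM in SUM_3 (others 636 to 823 CPM) and miR-146a at 2152 CPM in SUM_1, below 3844 to 4096 CPM in the others.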

How the results depend on the processing

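The count of 1 called miRNA became 11 without SOV in the mean, 3 without FOV in the mean and 10 with DESeq2 (7 higher, 3 lower), and 0 with the 2-group model (19 at an unadjusted p under 0.05), with equal totals (36) and after TMM was recomputed on the 15 libraries (38, an alternative added once the data had been seen); edgeR's quasi-likelihood test called 1. With a library left out it ranged from 0 to 5: 0 without SAN_2 (23 at an unadjusted p under 0.05), SAN_3 (29) or FOV_2 (39), and 5 without SAN_1. Let-7c kept a log2 FC of 1.10 to 1.499 under all 34 alternatives and was called in 28, with adjusted p of 0.000278 to 0.181; outside single libraries the call was lost with the 2-group model (0.126), equal totals (0.0753) and TMM over the 15 libraries (0.111), and with FOV_1 kept the adjusted p was 0.0207. TMM over the 15 libraries moved the median of all miRNAs by -0.10, and relative to that median let-7c was at 1.37, beside 1.39 as reported. Of the miRNAs at an unadjusted p under 0.05, 60.5% were higher in SAN as reported, 53.8% with median-of-ratios scaling, 47.2% with equal totals and 44.7% with TMM over the 15 libraries. Without SUM in the mean the log2 FC of 16 of 66 named miRNAs changed sign, among them miR-143 (-0.065), miR-145 (-0.057), miR-100 (-0.18), miR-125a-5p (0.47), miR-10b (0.20) and miR-195 (-0.30). Under any alternative, 2 of the 24 miRNAs of lowest p (miR-143 and miR-145) and 21 of the 42 others changed sign. The 52 calls among ovulatory seasons ranged over 31 to 52 with a library left out and over 41 to 59 otherwise, and without SUM_1 and SUM_4, likewise added later, numbered 55, of which 31 were shared. Of 2238 single values recomputed for 66 miRNAs, 2198 kept their direction and side of the threshold or moved by less than the spread between libraries.

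No pairing of the libraries by the replicate numbers of the labels was seen. Of 21 pairs with the same number, 3 had a correlation of deviations above 0.1, and 4 of 15 libraries correlated best with their own number. This cannot exclude mares shared under a number, since the libraries are pools and the mares of each are not given. With a replicate block the count stayed at 1, let-7c at 1.34 with an adjusted p of 0.0238 (limma), and the calls among ovulatory seasons numbered 42. Depth limits the miRNAs below 100 CPM, where a mean of 10 CPM lies under 1 read in most libraries.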
